A study of Mus musculus with 8 samples.

Results

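Regulatory T cells (Tregs) are the CD4 T cells that depend on FOXP3, a transcription factor, and hold other immune cells in check. The cultures described here are the 4 samples whose titles call them wild-type Tregs without treatment, of 8 samples in the series. Their 4 library columns, of 7 in the deposited table, were chosen by title. Cell sorting took the Tregs from mice of the strain Foxp3-GFP, a reporter of Foxp3, and they were activated with beads carrying antibodies to CD3 and CD28, and kept with IL6, IL23 and IL1B until day 6. All samples of the series share these 3 cytokines and the beads, and the other 4 samples are titled FcCD70, a soluble CD70 that engages the receptor CD27. For each of the 8 samples the treatment field of the labels contradicts the title: the 4 described here carry the FcCD70 entry in that field. The table names its columns as the titles do, so the description stands or falls with the titles. No effect of FcCD70 was examined. Nothing in the labels says that the libraries came from separate mice, so the spread between them may be technical.

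IL-6 signals through IL6RA and the shared chain IL6ST to STAT3, IL-23 through IL12RB1 and IL23R to the same factor, and IL-1 beta through IL1R1 with its partner IL1RAP, while IL1R2 is a decoy that binds IL-1 and does not signal. In conventional CD4 T cells these signals favour the Th17 fate, which the cytokines IL-17A and IL-17F mark. Tregs keep their identity through FOXP3 and factors such as Helios (Ikzf2), and can take up parts of the Th17 program in such cytokines.

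Values are normalized counts, which are reads divided by 1 size factor per library, and they are listed in the order of libraries 1 to 4. Levels of different genes are compared only as normalized count per kilobase of exon, given as mean ± SD over 4 libraries. The libraries held 18159685, 19715108, 21200214 and 23527899 reads on genes, and 3 reads, the most that a count of 0 allows, corresponded to normalized counts of 3.30, 3.03, 2.91 and 2.61. A gene was taken as detected at a mean normalized count of at least 10, which 11100 of 19703 genes reached (56.3%), and 5483 genes had no read in any of the 4 libraries. Spread is given as the excess CV, the SD divided by the mean after the part that counting error gives is removed. Its median was 0.0816 over the 9305 genes with a mean of at least 100, and the 10th and 90th percentiles were 0.0224 and 0.212. Libraries 3 and 4 were more alike than the other pairs, with a Pearson correlation of 0.993 across detected genes against 0.973 to 0.982 for the other 5 pairs, which is a description over genes that are not independent. The median detected gene stood at 172.8 normalized counts per kilobase. In bulk RNA, fewer cells of a type and less RNA per cell cannot be told apart.

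The most abundant messages belonged to the cytoskeleton, antigen presentation and translation. Per kilobase of exon the highest was Tmsb4x, which encodes the actin-binding peptide thymosin beta 4, at 65953 ± 8527 normalized counts, followed by B2m, the light chain of MHC class I, at 46988 ± 5533. With 2 receptor or immunoglobulin segments left aside, 13 of the 20 highest genes per kilobase encoded ribosomal proteins, led by Rps15, Rpl32 and Rpl4. Their order depends on the exon lengths used. By mean normalized count Rpl4 (72390) and Rps3 (55310) stood above Rps15 (24053). The others were Tmsb4x, B2m, Actb (actin), Eef2 (an elongation factor of translation), Lars2, the GTPase gene Gimap4 and the tetraspanin gene Cd53. By normalized count without regard to length, Lars2, which encodes the mitochondrial leucyl-tRNA synthetase, was first in this table, at 386333, 312177, 222978 and 207549. It was highest in library 1 and lowest in library 4, and took 1.93%, 1.57%, 1.08% and 1.01% of the reads on genes. Whether all these reads come from its message was not tested. The 100 highest genes by count held 15.6% to 17.2% of the reads.

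**Figure D1:**
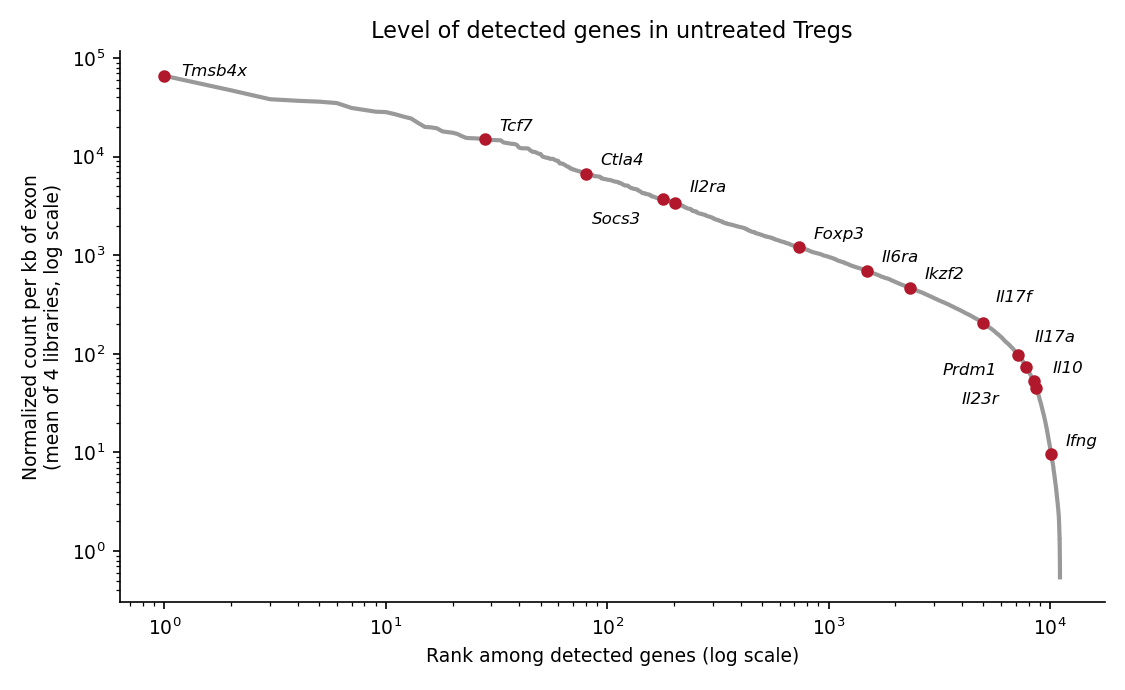
Mean normalized count per kilobase of exon (vertical axis, log scale) against rank among detected genes (horizontal axis, log scale) in the 4 untreated libraries. The grey line holds all detected genes with a length, the red points mark genes of the text, and Ctla4 and Il2ra lie above Foxp3, which lies above Il17f and Il23r.

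Messages of ribosomal proteins are known to begin with a run of pyrimidines, a feature through which their translation is regulated. Since these genes filled most of the top ranks and moved together between libraries, the RefSeq sequence around their start sites was read from build GRCm38.p6. Each sequence below runs 5′ to 3′ from 30 bases before the annotated start to 30 bases from it on, with the run in capitals. A run here is a C followed by at least 7 bases that are each C or T, on the strand of the gene. The first 5 are, of the ribosomal protein genes with a window, those with the highest level per kilobase that hold such a run, and the last 3 are the highest genes that hold none.
Rpl4 (chr9:64173357-64173416, plus strand): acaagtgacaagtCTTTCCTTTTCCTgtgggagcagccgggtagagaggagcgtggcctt
Rpl13a (chr7:45128716-45128775, minus strand): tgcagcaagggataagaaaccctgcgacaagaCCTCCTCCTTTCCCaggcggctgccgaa
Rps9 (chr7:3704011-3704070, plus strand): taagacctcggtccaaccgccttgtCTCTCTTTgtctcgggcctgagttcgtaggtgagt
Rpl38 (chr11:114668550-114668609, plus strand): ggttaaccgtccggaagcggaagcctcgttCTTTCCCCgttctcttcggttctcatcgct
Rps6 (chr4:86857338-86857397, minus strand): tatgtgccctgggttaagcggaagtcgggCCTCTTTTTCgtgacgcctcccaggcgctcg
Tmsb4x (chrX:167209189-167209248, minus strand): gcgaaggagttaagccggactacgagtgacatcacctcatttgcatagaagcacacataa
B2m (chr2:122147657-122147716, plus strand): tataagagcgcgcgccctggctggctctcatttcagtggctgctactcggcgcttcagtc
Rps15 (chr10:80292401-80292460, plus strand): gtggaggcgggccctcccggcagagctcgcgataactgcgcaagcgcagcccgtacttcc
The run was found in 33 of 57 detected ribosomal protein genes with a window (57.9%). It was found in 1847 of 8560 detected protein-coding genes (21.6%) and in 5967 of 32851 windows of the whole table (18.2%). Among the 100 highest genes per kilobase that are not ribosomal protein genes, 27 held it. These are matches of letters around annotated starts, which can lie some bases from the true ones, and Rps15, the highest member of the family per kilobase, held no run in this window.

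The Treg markers were present in every library. Foxp3 (chrX:7573644-7595245, GRCm38) had normalized counts of 6585, 5606, 4811 and 5126, highest in library 1 and lowest in library 3. Its level was 1209 ± 169 per kilobase, rank 733 of 11092 detected genes with a length. Ctla4 (chr1:60887000-60915832), which encodes the inhibitory receptor that competes with CD28 for its ligands, had 19086, 15948, 14009 and 13497, and at 6710.3 ± 1086 per kilobase it ranked 80. Il2ra (chr2:11642807-11693193), the alpha chain of the high-affinity IL-2 receptor, had 17768, 19237, 22229.7 and 18434 and ranked 202 at 3400 ± 345 per kilobase. Ikzf2 (chr1:69531214-69687245), the gene of Helios, had 5964, 6077, 4907 and 4809 and ranked 2319 at 468 ± 58.0 per kilobase. These 4 genes varied by 1.25 to 1.41 times between their highest and lowest library. The rank of Ikzf2 depends on the length used: over coding length in place of all exons it moved from the 79.1st to the 91.2nd percentile of detected genes.

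Of 26 genes of the Treg signature, 25 had a row and all 25 were detected, beside 56.3% of all genes. Their median level was 649.7 per kilobase, and 11 stood in the top 10% of detected genes. After Ctla4 and Il2ra came Izumo1r, the folate receptor 4 gene, at 3013 ± 603 per kilobase, and Tnfrsf18, the gene of GITR, at 2151 ± 192. Lrrc32, whose product GARP holds latent TGF-beta at the cell surface, stood at 1685 ± 304 per kilobase. Among the low members, Klrg1, a receptor of terminally differentiated Tregs, had 5.50, 14.1, 7.77 and 54.8, and Itgb8, an integrin chain that activates latent TGF-beta, had 309, 207, 135 and 103. Both lay far below the median gene per kilobase, Klrg1 at 14.5 and Itgb8 at 17.0. Itgae, the gene of the integrin CD103, had 1194, 766, 333 and 413, and Plagl1, a zinc finger factor, had 678, 355, 185 and 185. Each was highest in library 1 and more than 3 times as high there as in its lowest library, whereas Foxp3 itself differed by 1.37 times.

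T cell genes were high throughout, and genes of other cell types ranged from no read to above the median gene. All 18 genes of the T cell list stood in the top 10% per kilobase, among them Cd4 at 3587 ± 468 and Cd3e at 1722 ± 61.1, and the list summed to between 220673 and 235965 normalized counts per library. Of 8 genes of CD8 T cells and NK cells with a row, 3 were detected, beside 56.3% of all genes, and the 8 summed to between 423 and 823. Cd8a was at 0, 8.07, 6.80 and 13.1, with no read in library 1, and Ncr1 had no read. Cd8b1, the other chain of CD8, had 169, 110, 176 and 168, and Klrd1, an NK receptor chain, had 216, 434, 616 and 446, or 334 ± 128 per kilobase, above the median gene in its mean. Myeloid and dendritic genes (14 with a row, 4 detected) summed to between 490.4 and 697, and Adgre1, Elane and Clec9a had no read. The 4 detected were Cd74, the invariant chain of MHC class II, with 461, 419.8, 237 and 267, or 206 ± 66.0 per kilobase, Cd68, with 109, 118, 91.3 and 111, and H2-Ab1 and Fcgr3, at 30.2 ± 7.93 and 33.0 ± 8.73 per kilobase. Gamma delta genes (5 with a row, 1 detected) summed to between 44.4 and 74.9, and the 5 red cell and platelet genes to at most 1.74. The part of other cells in any result was not tested.

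Among the B cell genes both heavy chain constant regions stood above the median gene. Ighm, the constant region of the IgM heavy chain, had 35666, 33780.3, 33965 and 32628 and at 18033 ± 664 per kilobase it ranked 18. Ighd, the constant region of IgD, had 546, 427, 439 and 482, or 249 ± 28.3 per kilobase. The light chain gene Igkc had 2.20, 8.07, 1.94 and 12.2, and the B cell factor gene Pax5 had 0, 6.05, 0 and 0.870. The 8 B cell genes other than Ighm and Ighd summed to between 174 and 278 normalized counts. So Ighm was among the 20 highest of all rows per kilobase in libraries where Igkc and Pax5 were at or near the floor, and its excess CV was 0.0364. Cd79b, a chain of the B cell receptor, had 187, 99.9, 177 and 189.

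Among factors of the naive and effector Treg states, Tcf7 was the highest and Prdm1 among the lower ones. Tcf7, the gene of TCF1, had 34112, 39603, 41108 and 43008 and ranked 28 at 15032 ± 1458 per kilobase. Satb1, a chromatin organizer, stood at 1428 ± 124, Foxo1 at 1069 ± 69.3, Lef1 at 807 ± 101 and Bach2, a repressor that holds back effector genes, at 590 ± 31.7 per kilobase. Prdm1, the gene of BLIMP1, a factor of effector Tregs, had 315, 474, 353 and 499, or 73.5 ± 16.1 per kilobase. Other factors linked to the effector state were higher than Prdm1. Batf stood at 974 ± 86.7, Id2 at 893 ± 122 and Irf4 at 195 ± 38.0 per kilobase. Batf lay above Lef1 and Bach2 in each library, and Id2 lay above Bach2 in each library. Against Lef1, Id2 was higher in its mean and in libraries 1 and 2, and lower in libraries 3 and 4. Id3 stood at 235 ± 41.6 and Foxp1 at 279 ± 4.61. All 27 factors of this list with a row, of 28, were detected, and none had an excess CV above 0.3, beside 4.28% of all genes with a mean of at least 100. Ikzf3, the gene of Aiolos, stood at 0.234 and Foxp1 at 0.00391 on that measure. Among homing genes of naive T cells were S1pr1, which lets lymphocytes leave tissue, at 5379.8 ± 353, and Ccr7, a lymph node homing receptor, at 3073 ± 247 per kilobase.

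All 13 Th17 factors with a row (of 14) were detected, beside 56.3% of all genes, at a median of 195 per kilobase. Per kilobase, Hif1a, a hypoxia and glycolysis factor, was at 2589.7 ± 337, Batf at 974 ± 86.7 and Stat3, the factor that IL-6 and IL-23 activate, at 936 ± 56.6. Maf, which acts with STAT3 in IL-17-producing cells, was at 462 ± 52.5, Rora at 180.3 ± 27.7 and Ahr, a receptor of small aromatic ligands, at 119.6 ± 10.7. Stat3 had 9648, 8982, 8432 and 8604 and Ahr 819, 748, 722 and 659.7, both highest in library 1 and within 1.24 times between libraries. Ikzf3 had 5996, 4909, 3496 and 4083, highest in library 1 and lowest in library 3.

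Gata3, Tbx21 and Eomes, which direct other helper fates, stood below Foxp3. Gata3, the Th2 factor that Tregs also use, had 584, 626, 542 and 675, or 153 ± 14.4 per kilobase, and Foxp3 was 7.97 ± 1.33 times as high. Tbx21, the gene of the Th1 factor T-bet, had 26.4, 35.3, 47.6 and 48.7, and Foxp3 was 55.0 to 136 times as high per kilobase. Eomes had 13.2, 6.05, 8.74 and 10.4 and was not detected by the threshold used. Of 13 genes of this list 10 were detected (76.9%, beside 56.3% of all genes), and Eomes, Ascl2 and Hlx were not. Stat6, which carries the signal of IL-4, led the list at 1436 ± 59.5 per kilobase, above Foxp3 in each library.

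**Figure D2:**
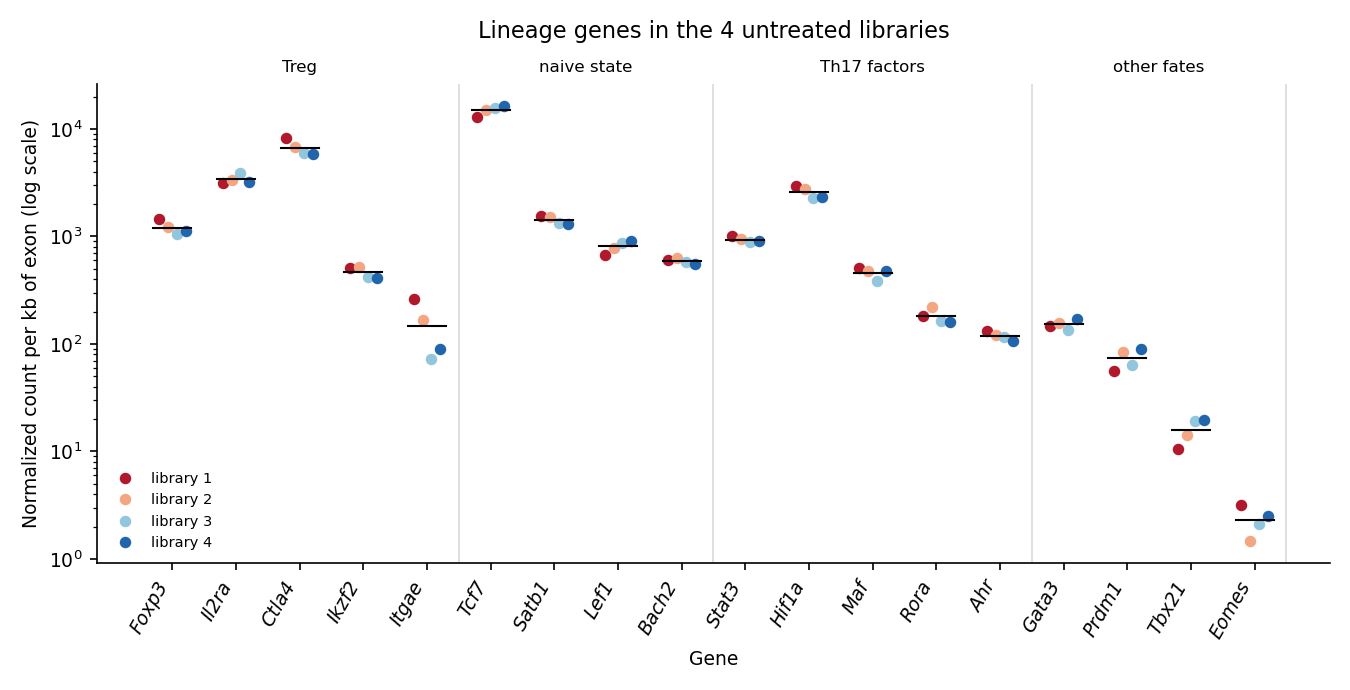
Normalized count per kilobase of exon (log scale) of lineage genes in each of the 4 untreated libraries; points are libraries and bars are means. Tcf7 and Ctla4 lie highest, Tbx21 and Eomes lowest, and Itgae shows wider gaps between libraries than Foxp3, Stat3 or Ahr.

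The receptors for the 3 cytokines in the medium stood at very unequal levels. Il6ra had 6523, 6258, 6222 and 5093 and its partner Il6st 5225, 5635, 5519 and 5771, at 697 ± 73.5 and 499 ± 20.9 per kilobase. Il12rb1 had 529, 692, 538 and 655, at 147 ± 20.1 per kilobase. Il23r had 237, 128, 38.8 and 47.0, at 45.3 ± 37.0 per kilobase. Il6ra and Il6st thus stood above the median gene and Il23r below it in all 4 libraries. Il23r was highest in library 1, lower in library 2 and lowest in libraries 3 and 4, a range of 6.09 times, while its partner Il12rb1 ranged by 1.31 times and was highest in library 2. Il6ra exceeded Il23r per kilobase by 7.94 times in library 1 and by 46.1 times in library 3. The list of these genes holds receptor chains, the kinases JAK1, JAK2 and TYK2, the factors STAT3 and STAT4 and the inhibitor SOCS3. All 12 genes of the list were detected, beside 56.3% of all genes, and Jak1 led it at 3839 ± 244 per kilobase.

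Among IL-1 receptors the decoy exceeded the signalling chain. Il1r1 had 698, 674, 173 and 354, or 74.6 ± 40.1 per kilobase, and Il1r2 had 800, 907, 364 and 381, or 321 ± 147 per kilobase. The ratio of Il1r2 to Il1r1 per kilobase was 4.73 ± 1.58 and lay between 3.59 and 7.03, above 1 in 4 of 4 libraries. Its size depends on the exon lengths used. By normalized count both genes lay much closer, with Il1r2 still above Il1r1 in each library. Coding length was not compared for them. Both genes were high in libraries 1 and 2 and low in libraries 3 and 4. The accessory chain Il1rap had 468, 447, 401 and 394, with little spread. Il18r1, the receptor of IL-18, was the highest of the 15 genes at 1658 ± 242 per kilobase, 17.1 to 53.8 times Il1r1. Il1rl1, the gene of the IL-33 receptor ST2, had 366, 388, 347 and 520.5 and stood at 58.8 ± 11.4.

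Receptors of IL-2 and related cytokines were mostly high. Their list of 15 genes also holds receptor chains of IL-10 and the interferons and the kinase gene Jak3, and 8 of the 15 stood in the top 10% per kilobase, led by Ifngr1, a chain of the interferon gamma receptor, at 7267 ± 487. Per kilobase, Il2rg, the common gamma chain, stood at 2505 ± 144, Il7r at 1455 ± 232, Il4ra at 1361 ± 293 and Il2rb at 1276 ± 92.2. The median excess CV of the list was 0.0696, near the 0.0816 of all genes. Il10ra, a chain of the IL-10 receptor, had 508, 689, 1022 and 992. It was the only member above 0.3 of 14 with a mean of at least 100, beside 4.28% of all such genes. Il9r was the lowest member of the list, at 3.43 per kilobase. TGF-beta signalling genes varied least of the lists described here, with a median excess CV of 0.0368. Tgfbr2 had 6011, 5914, 6433 and 5969.9, or 743 ± 29.0 per kilobase, and Tgfb1, the cytokine itself, had 1432, 1383, 1535 and 1601. Skil, a feedback repressor of the SMAD proteins, was the exception, with 4029.6, 3845, 2661 and 2517.

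**Figure D3:**
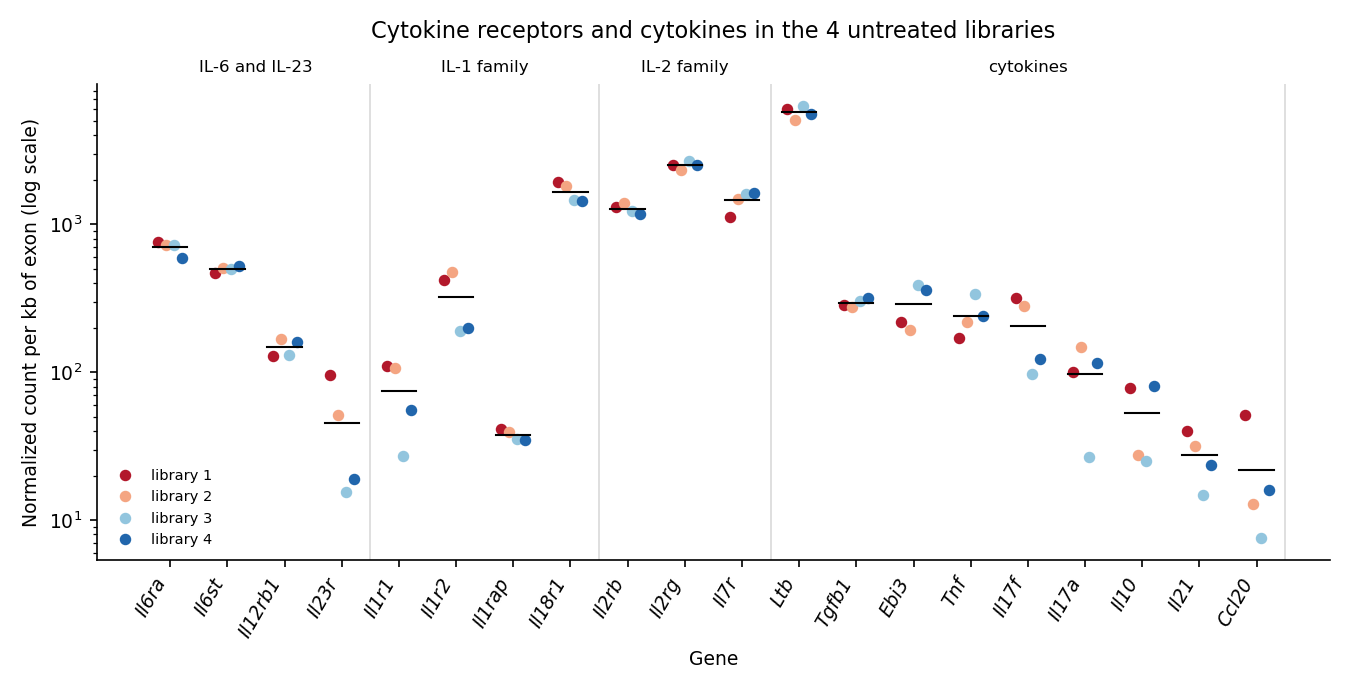
Normalized count per kilobase of exon (log scale) of cytokine receptor and cytokine genes in each of the 4 untreated libraries; points are libraries and bars are means. Il23r, Il1r1, Il1r2, Il17f and Il17a spread widely, while Il6st, Il2rg and Ltb stay close together.

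Most cytokine genes were low or absent. Of 30 effector cytokine genes, 21 were detected (70%, beside 56.3% of all genes), and their median level was 68.5 per kilobase. The highest were Ltb, a lymphotoxin chain, at 5749.8 ± 544 per kilobase, Tnfsf8, the CD30 ligand, at 2229 ± 293, Mif at 2079 ± 434 and Il16 at 1130.3 ± 33.8. Il3, Il5, Il6, Il9 and Il24 had no read in any library, which allows at most 3 reads in each.

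Th17 cytokines were present at low levels. Il17f (chr1:20777146-20790617) had 642, 563, 196 and 248, or 204 ± 110.2 per kilobase, rank 4997, close to the median gene in its mean only. Per kilobase, libraries 1 and 2 stood above the level of the median gene and libraries 3 and 4 below it. Il17a had 117, 174, 31.1 and 136, or 97.6 ± 51.5 per kilobase. Il17f exceeded Il17a per kilobase in 4 of 4 libraries, by 1.06 to 3.66 times. Library 4 held the smallest ratio, since Il17f was low there and Il17a was not. Il21 had 211, 165, 77.7 and 124. Il22 had 0, 0, 0 and 3.48, at most 4 reads, and no fold is given for it. Ccl20, the ligand of CCR6, had 72.6, 18.2, 10.7 and 22.6, and its receptor gene Ccr6 had 2199, 1527, 1003 and 898, and both were highest in library 1. Csf2, the gene of GM-CSF, had 35.2, 19.2, 12.6 and 44.4.

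Cytokines of other fates were low. Ifng and Il2 passed the threshold of detection in their means, and Il4 stayed below the floor in each library. Ifng had 0, 9.08, 16.5 and 24.4, with no read in library 1, and Il2, which FOXP3 is known to repress, had 0, 23.2, 31.1 and 26.1, again with no read in library 1. Il4 had 0, 0, 0.971 and 1.74. Tnf was higher, with 277, 356, 549.6 and 396, highest in library 3.

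Among suppressor molecules, Lgals1, the gene of galectin 1, was high at 6309 ± 601 per kilobase. Nt5e, the ectoenzyme CD73 that makes adenosine, stood at 925 ± 97.3. Il10 had 102, 36.3, 33.0 and 105, high in libraries 1 and 4 and low in libraries 2 and 3. Ebi3, a chain of IL-35 and IL-27, had 252, 221, 448 and 416, while Il12a, the other chain of IL-35, had 2.20, 6.05, 2.91 and 0. Gzmb, which encodes the cytotoxic protease granzyme B, had 483, 1268, 1746 and 2339, lowest in library 1 and highest in library 4. Gzmc had 60.5, 37.3, 223 and 188 and Gzma 37.4, 18.2, 98.1 and 96.6, with libraries 3 and 4 above libraries 1 and 2 for both.

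Costimulatory receptors were high. Cd27, the receptor that FcCD70 engages in the other cultures, had 6716, 5988, 6688 and 6516, with an excess CV of 0.0507. At 2782 ± 145 per kilobase it ranked 250, beside Icos at 2791 ± 123 and Cd28 at 2198 ± 174. Cd70, its ligand, had 0, 3.03, 0.971 and 0.870, at most 3 reads in a library. Tnfrsf4, the gene of OX40, stood at 1932 ± 184. Of 18 genes of this list 16 were detected, beside 56.3% of all genes. None had an excess CV above 0.3, beside 4.28% of all genes with a mean of at least 100. Among inhibitory receptors Ctla4 led, followed by Cd96 at 2036 ± 296 and Btla at 1662 ± 171 per kilobase. Pdcd1, the gene of PD-1, had 496, 426, 313 and 309, and Havcr2, the gene of TIM-3, had 113, 178, 39.8 and 61.8, with libraries 1 and 2 high. Tigit went the other way, with 472, 543, 683 and 716.

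Chemokine receptors were mostly detected (25 of 26 homing genes, beside 56.3% of all genes), at a median of 606 per kilobase. Cxcr6, a receptor of tissue T cells, had 1134, 1263, 672 and 892. Ccr8, a receptor of tissue Tregs, had 184, 188, 114 and 100.1, and Ccr3 had 62.7, 115, 130.1 and 245, highest in library 4. An excess CV above 0.3 was found for 5 of the 24 list genes with a mean of at least 100, beside 4.28% of all such genes. They were Itgae, Ccr3, Ccr1, Ccr6 and Ccr8. Of these, Itgae, Ccr6 and Ccr1 were highest in library 1.

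Targets and brakes of STAT3 and STAT5 were among the well expressed genes. Socs3, the inhibitor that IL-6 induces through STAT3, had 10896, 9114, 11475 and 11364, or 3705 ± 379 per kilobase, rank 178. Pim1, a survival kinase, stood at 5940.1 ± 954 and Mcl1, a protein that blocks cell death, at 5788 ± 213. Cish, a target of STAT5, had 2789, 2493, 3648 and 2645, and Socs1 had 489.7, 397, 969 and 669, both highest in library 3. Bcl2 had 5188, 5714, 9166 and 7165 and Myc 1438, 1379, 2466 and 2014, again highest in library 3. All 13 genes with a row, of 15, were detected, beside 56.3% of all genes, 7 of them in the top 10% per kilobase.

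Of 29 cell cycle genes with a row 28 were detected, beside 56.3% of all genes. Since these genes were expressed, the cultures are called untreated here and not resting. Mki67, which marks cycling cells, had 7522, 6321, 2328 and 3534, or 489.6 ± 239 per kilobase, above the median gene on average. Top2a, a topoisomerase of dividing cells, had 6572, 6178, 3145 and 3744, and Ccna2, a cyclin of S and G2 phase, had 1743, 1487, 587 and 784. For all 3 genes libraries 1 and 2 were high, library 4 was lower and library 3 lowest. Cdkn1b, the gene of the cell cycle inhibitor p27, did not follow that order, with 12568, 13098, 12601 and 12476, and nor did Cdk4, with 3293, 3359, 3537 and 3532. Energy genes were high: Ldha, the lactate dehydrogenase, at 5846 ± 196, Aldoa at 4258 ± 591 and Gpi1 at 2365 ± 366 per kilobase. All 13 glycolysis genes with a row and all 17 respiratory chain genes were detected, at medians of 419 and 1012 per kilobase.

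An excess CV above 0.3 was found in 398 of 9305 genes (4.28%). That share depends on the minimum mean of 100: it was 9.18% at a minimum of 20 and 1.24% at 500. The 15 highest were Cyp1a1, Kit, Il23r, Gbp2b, Plac8, Ttk, Rad51ap1, Gzmc, Pik3r3, Tgm2, Hmgn3, E2f8, Plagl1, Tnip3 and Exo1. Cyp1a1, a detoxifying enzyme induced through the aryl hydrocarbon receptor, led them with 609.6, 228, 82.5 and 101 and an excess CV of 0.957. Kit, the receptor of stem cell factor, had 506, 299.7, 93.2 and 75.7. Both were highest in library 1. Ttk, E2f8, Rad51ap1 and Exo1 act in mitosis, S phase or DNA repair, and Ttk had 364, 227, 57.3 and 100.1 and E2f8 438, 275, 80.6 and 149. Libraries 3 and 4 were high instead for Plac8, with 31.9, 92.8, 278 and 289, and Tgm2, a transglutaminase, with 163, 186, 684 and 626. Of the 15, 10 were highest in library 1, 1 in library 2, 2 in library 3 and 2 in library 4.

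Some abundant genes differed between libraries as well. Thy1, a surface glycoprotein of T cells, had 4859, 5443, 12740 and 12392, with libraries 3 and 4 far above the others, while Cd3e had 6936, 6800.3, 7380.4 and 6987. Jund, an AP-1 subunit, had 1305, 1198, 2461 and 2314. At the even end were Hcls1, with 7546, 7567, 7593 and 7539, and Cops6, with 1531, 1541, 1534 and 1548, whose spread was below what counting error gives.

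**Figure D4:**
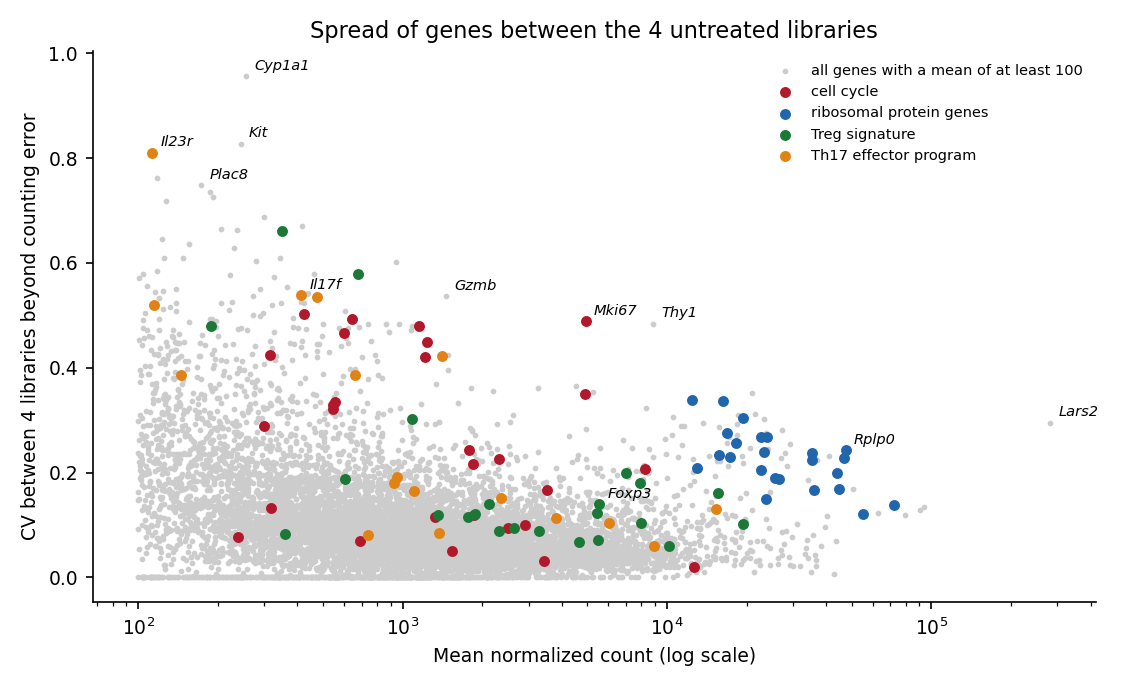
Excess CV between the 4 untreated libraries against mean normalized count (log scale) for genes with a mean of at least 100. Grey points are all such genes and coloured points are members of 4 lists; Cyp1a1, Kit and Il23r lie highest, and the ribosomal protein genes lie apart at high counts with an excess CV of 0.122 to 0.338.

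Some gene lists differed between the libraries as a whole. For each detected gene the log2 deviation of a library from the gene's mean over 4 libraries was taken, and the median over a list is given. Over all detected genes that median lay within 0.01 of 0 in each library. For the cell cycle list it was 0.35, 0.20, -0.39 and -0.19 in libraries 1 to 4, for the Th17 effector program 0.27, 0.09, -0.25 and -0.13, and for the ribosomal protein genes -0.23, -0.34, 0.24 and 0.32. The medians of the cell cycle and Th17 lists were thus positive in libraries 1 and 2 and negative in 3 and 4, and that of the ribosomal protein genes the reverse. For the Th17 list the value in library 2 was small, and the value in library 4 turned from -0.13 to 0.035 when library 1 was left out. The T cell list (-0.07, -0.08, 0.12 and 0.07) and the Treg signature (0.14, 0.03, -0.05 and -0.11) differed less.

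The counts of members set library 1 apart for the cell cycle and Th17 lists, and not library 2. All detected genes had their highest value in library 1 in 29.0% of cases, in library 2 in 25.4%, in library 3 in 25.6% and in library 4 in 20%. Of 28 detected cell cycle genes, 18, 5, 4 and 1 were highest in libraries 1 to 4, and of 19 Th17 effector genes 15, 2, 0 and 2. Of 24 ribosomal protein genes of the list, 0, 0, 2 and 22 were. Over all 74 detected ribosomal protein genes found by symbol, 65 were highest in library 4 and 9 in library 3, and 64 were lowest in library 2 and 10 in library 1. Rpl13 had 12527, 10677, 20147 and 21734 and Rps19 14594, 13975, 23344 and 25311. Ribosomal protein genes together took 6.26%, 5.98%, 8.67% and 9.05% of the reads on genes. The part of this shift, of library depth or of proliferation in the spread of single genes was not tested.

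**Figure D5:**
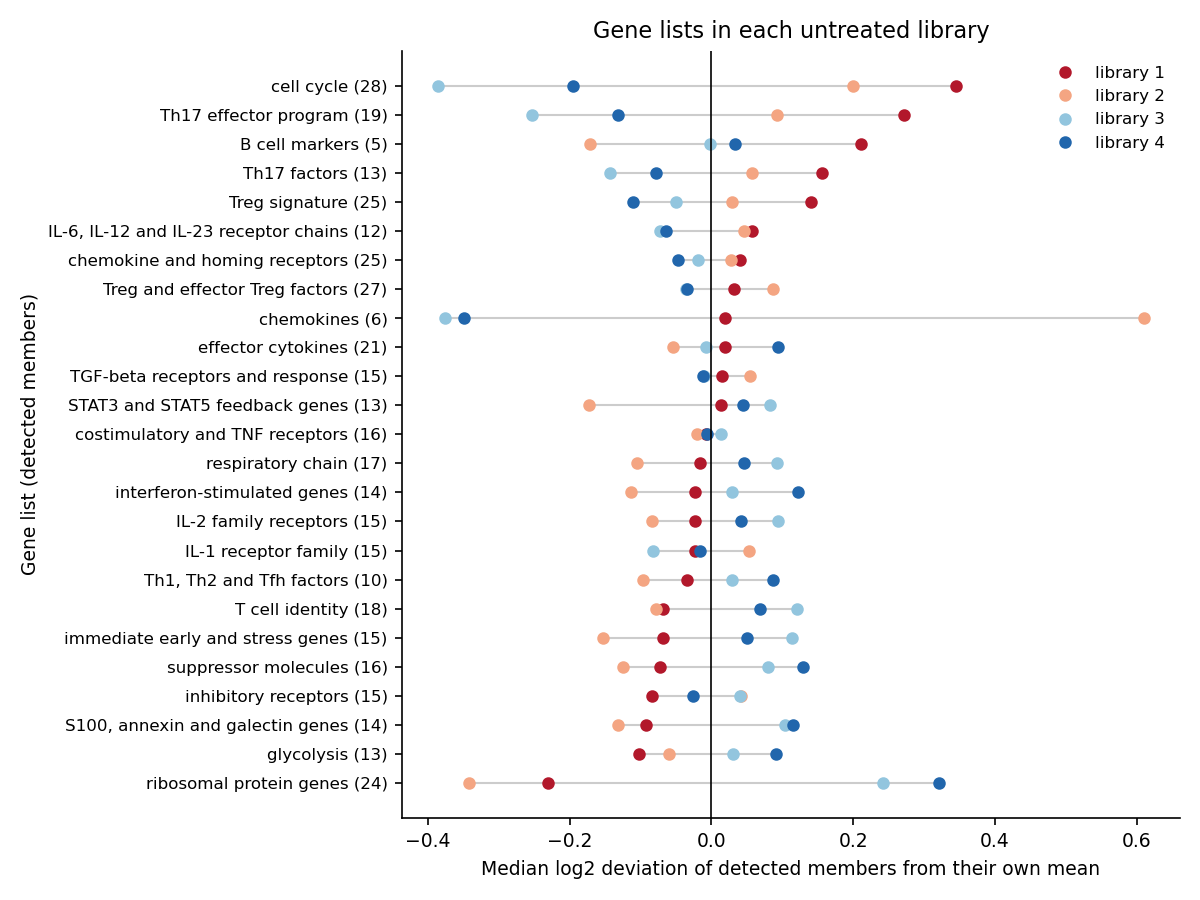
Median log2 deviation of the detected members of each gene list from their own mean (horizontal axis) in each of the 4 untreated libraries; the number of detected members is in brackets. Cell cycle and Th17 effector genes lie to the right in libraries 1 and 2 and to the left in 3 and 4, and the ribosomal protein genes lie the other way; the Th17 value of library 2 is small, at 0.09.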

How the data were processed

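Poly(A) RNA of day 6 Tregs went into Illumina libraries that mark strand, per the labels' protocols. The submitters' processing notes list GRCm38.p4 as the build and TopHat2, SAMtools, HTSeq and DESeq2 as tools, without role or order. Which annotation was counted, and with what strand setting, is not given in the sources used here. Reads of overlapping genes on opposite strands may therefore be shared: 3539 detected genes and 39 of the 146 genes whose levels are printed, Foxp3, Ikzf2 and Stat3 among them, have such a partner. Ribosomal protein genes, Trbc1 and Trbc2 may also gain or lose reads through near copies, which was not examined.

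The library columns deposited by the authors hold a signal, read counts scaled with 1 size factor per library, as the values show: 100% of values in each library were whole multiples of 1 read within 0.01 (1.10, 1.01, 0.971 and 0.870 normalized counts). The reads recovered in this way gave depth, floors and counting error, which cover counting error only. No test between groups was run, since 1 group was described. Dixon's critical value was used only to flag single libraries.

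Of 19703 genes, 19618 matched GENCODE vM21 (GRCm38) for exon length. The excess CV is the root of the squared CV less the squared counting CV. Tested on simulated data over 9305 genes with a true value of 0.1, its median was 0.0863. Python 3.11.15 with pandas 2.3.3 and edgeR 4.0.16 (TMM factors) were used. Named genes were the 20 highest by count and per kilobase, the 15 with the highest and 10 with the lowest spread (segments, gene models and pseudogenes left out, 2 of the highest per kilobase), and members of 29 lists (447 genes, 421 with a row; the rest were not analysed here). Some members are not reported here. Deviations used log2 of the value plus 1. Members and lists were chosen with earlier results of these data known. Alternatives were other scalings, other thresholds, each library left out and, chosen after seeing the data, coding length and other run lengths.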

Additional observations from a re-analysis of the deposited data

Results flagged for a closer look

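Of 146 genes whose library values were looked at, 6 had 1 library set apart from the other 3 by a gap that made up most of their whole range, past Dixon's critical value for 4 values. Chance flags about 1 in 20 such groups, and the share flagged here, 4.11%, was no higher than that. Library 2 was the lowest for Cd8b1, at 109.99 normalized counts against 168 in the nearest library, for Cd79b, a chain of the B cell receptor, at 99.9 against 177, and for Cyp1b1, at 28.3 against 66.0. It was the highest for Pax5, at 6.05 against 0.870. Ifit1 was highest in library 1, at 78.1 against 55.5, and Il22 in library 4, at 3.48 against 0. The values of Pax5 and Il22 are a few reads each. Since the other 3 libraries hold 0 for Il22, its gap fills the whole range by construction.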

How the results depend on the processing

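No paired analysis was possible because the values come from no test and the FcCD70 samples enter nothing. The number of detected genes stayed within 1.5 times of 11100 under every alternative run, from 10605 (at least 10 in every library) to 13002 (a mean of at least 1). The median excess CV of 0.0816 became 0.0892 for genes with a mean of at least 20 and 0.0703 for a mean of at least 500, and lay between 0.0690 and 0.0842 with a library left out. The share above 0.3, 4.28%, became 9.18% and 1.24% at those minimums, and 3.59% to 5.27% with a library left out. With coding length Il2ra moved from the 98.2nd to the 99.1st percentile per kilobase and Ikzf2 from the 79.1st to the 91.2nd. Scaling to total reads and TMM moved none of the 146 gene levels by as much as 1 SD; leaving out 1 of 4 libraries cannot, by construction. The Th17 effector program's deviation in library 4 was -0.13, and -0.214 to 0.035 with a library left out, reversed without library 1, the mean being then over the other 3. Lengths from a protein table were not run. Pyrimidine runs of at least 6 or 10 bases gave 78.9% and 40.4% of ribosomal protein genes against 44.6% and 11.1% of detected genes. Ranks are among the rows used here. Depth limits genes such as Il22, Ifng and Il2, with few reads.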

Other observations

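The wide spread of Cyp1a1 was not seen to the same degree in 3 other genes known to respond to the aryl hydrocarbon receptor. Cyp1a1 had 609.6, 228, 82.5 and 101 normalized counts in libraries 1 to 4. Ahrr, the repressor of that receptor, had 489.7, 447, 374 and 359, Tiparp 1381, 1202, 1251 and 1343 and Cyp1b1 66.0, 28.3, 69.9 and 67.9; all 3 were picked with their values in view. Ahrr was likewise highest in library 1, by far less, and Tiparp and Cyp1b1 were lowest in library 2.

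Lars2 exceeded its cytosolic counterpart Lars by 59.8 to 106 times per kilobase, and Iars2, the gene of another mitochondrial tRNA synthetase, by 75.5 to 124 times. Whether all reads at Lars2 come from its message was not tested. Lars and Iars2 were also picked with their values in view. Lars had 1758, 1915, 1693 and 1681 and differed by 1.14 times between its highest and lowest library, against 1.86 times for Lars2.

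Interferon-stimulated genes were uneven. Isg15 had 57.2, 80.7, 53.4 and 103 and Ifit1 78.1, 55.5, 54.4 and 54.8, while Ifi27l2a stood at 3335 ± 210.4 and Gbp2 at 2558 ± 238 per kilobase. Of the S100 genes, S100a8 and S100a9 had no read, S100a4 had 16.5, 6.05, 20.4 and 34.8, and S100a10 stood at 5538 ± 593 per kilobase. Of the early response and stress genes, Fos had 61.6, 57.5, 67.0 and 49.6, while the chaperone gene Hsp90ab1 reached 9721 ± 229 per kilobase.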
